A study of Mus musculus with 6 samples.

Results

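Cassette exons are internal exons that can be spliced into a messenger RNA or skipped whole. Where such an exon holds a multiple of 3 bases, including it adds codons to the protein without moving the reading frame downstream, whereas any other length shifts the frame. The exons described here are the splicing nodes (segments of a gene between splice sites) that the deposited tables mark as cassette exons, that are 28 to 300 nt long with a length divisible by 3, and that had 20 or more reads in all 6 libraries. Of 323775 typed nodes in the series, 137615 had that many reads in every library, and 30050 of these were frame-keeping cassette exons, in 7676 genes. The measure is Psi (percent spliced in, given as a fraction from 0 to 1), the share of a gene's reads across a node that include it.

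The 6 libraries came from a mouse aortic cell line labelled as endothelial (Fn AB+/-, as the labels name it), immortalised with a doxycycline-inducible SV40 construct, expanded with doxycycline and then taken off it. Per the labels the groups are the parental line (WT), a CRISPR knockout of Ptbp1 that is a single cell clone (KO) and that knockout given a human PTBP1 cDNA (Rescue), each untreated or treated with TNF at 30 ng/mL, with 1 library per group and no replicates. The names of the deposited files disagree with these labels for 4 of the 6 libraries, and groups were read from the file names. The library labelled WT without TNF is also named so, as is Rescue with TNF. Of the others, the untreated library labelled KO bears the name of WT with TNF, and the untreated library labelled Rescue that of untreated KO. The TNF library labelled WT bears the name of KO with TNF, and the TNF library labelled KO that of untreated Rescue. A name with "basal" and no genotype was read as the parental line, which the names do not state. In the text, WT, KO and Rescue stand for the genotypes in the file names, and each pair of values is given without TNF first and with TNF second.

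Gene levels were set against both readings. Ptbp2, the paralogue whose own messenger RNA Ptbp1 is known to keep low, was at 29.1 and 23.2 TPM (a gene's level scaled to the library and to gene length) in the libraries named WT, 104.5 and 83.6 in those named KO and 37.6 and 41.5 in those named Rescue. The TNF target Ccl2 was at 108.5, 70.1 and 121.2 TPM in the 3 libraries named untreated and at 4699.2, 864.6 and 3793.4 TPM in those named TNF. Read by the labels, Ccl2 would instead be at 4699.2 TPM in untreated KO and at 121.2 TPM in KO with TNF. The highest Ptbp2 levels, 104.5 and 83.6 TPM, would then fall in untreated Rescue and in WT with TNF. Mouse Ptbp1 itself was at 179.9 and 198.4 TPM in the libraries named WT, 211.8 and 219.3 in those named KO and 80.6 and 78.3 in those named Rescue, so its total RNA was not low in the libraries named KO. Of 10 endothelial markers, 7 (Pecam1, Cdh5, Kdr, Tek, Tie1, Vwf and Emcn) were under 1 TPM in all 6 libraries and Erg was at no more than 1.3 TPM. The remaining ones, Eng and Cav1, which many other cell types express too, were at 123.2 to 173.9 and 183.8 to 440.9 TPM. The summed level of 10 smooth muscle and fibroblast markers was 3341.8 to 7391.3 TPM, most of it Col1a1, Col1a2 and Acta2, while Myh11 was at no more than 0.3 and Lum at no more than 9 TPM. Thy1, a surface protein of fibroblasts, was at 82.7 and 37.7 TPM in the libraries named WT and at no more than 0.6 TPM in those named KO and Rescue, the genotypes that the study derives from a single cell clone. In the comparison of KO with WT alone, what sets that clone apart and loss of Ptbp1 cannot be told apart; the values of Rescue, made from the same knockout, are given beside it. Libraries held 26882058 to 30011222 estimated reads on genes and 14729518 to 16886361 reads across splice junctions.

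Ptbp1, the polypyrimidine tract binding protein, binds pyrimidine-rich RNA and is known mainly as a repressor that keeps nearby exons out of the messenger RNA. Many of its known targets are exons that are skipped in most tissues and included in neurons or muscle, where Ptbp1 is low. Fewer exons are known to need Ptbp1 for their inclusion.

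The sequences of 13 of these exons are shown because the Psi values below turn on them. Of these, 4 had very low Psi in the libraries named WT and high Psi in those named KO, and 5 had lower Psi in those named KO than in those named WT. The others are the 3 alternative exons of App and a 30-nt node of Ptbp1 itself, which is annotated as an exon. All 13 sequences were read from GENCODE vM21 transcripts (build GRCm38) at the coordinates of the nodes, and are printed 5′ to 3′ on the gene's strand. Capitals mark the cassette exon and lower case the 12 bases of the exon on each side in the annotated transcript. The Scarb1 exon, which ends with the stop codon of its annotated transcript, is shown without neighbouring bases.
Phldb2, 183 nt, chr16:45774163-45774345, minus strand: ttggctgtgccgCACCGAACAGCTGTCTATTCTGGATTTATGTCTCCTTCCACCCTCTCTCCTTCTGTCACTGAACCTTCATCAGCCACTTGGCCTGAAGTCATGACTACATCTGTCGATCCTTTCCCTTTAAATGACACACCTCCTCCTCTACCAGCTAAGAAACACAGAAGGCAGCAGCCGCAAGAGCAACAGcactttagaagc
Palld, 51 nt, chr8:61534858-61534908, minus strand: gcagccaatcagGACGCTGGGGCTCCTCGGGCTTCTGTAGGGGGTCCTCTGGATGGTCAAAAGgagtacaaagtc
Dpf2, 42 nt, chr19:5903731-5903772, minus strand: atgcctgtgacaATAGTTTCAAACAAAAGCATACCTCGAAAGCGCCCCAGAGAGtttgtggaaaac
Trip10, 168 nt, chr17:57256860-57257027, plus strand: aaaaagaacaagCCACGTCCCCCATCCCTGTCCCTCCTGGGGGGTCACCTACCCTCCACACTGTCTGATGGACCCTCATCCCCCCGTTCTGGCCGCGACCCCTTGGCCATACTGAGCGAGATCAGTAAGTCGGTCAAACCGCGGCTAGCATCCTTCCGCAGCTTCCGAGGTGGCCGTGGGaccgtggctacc
Scarb1, 129 nt, chr5:125281105-125281233, minus strand: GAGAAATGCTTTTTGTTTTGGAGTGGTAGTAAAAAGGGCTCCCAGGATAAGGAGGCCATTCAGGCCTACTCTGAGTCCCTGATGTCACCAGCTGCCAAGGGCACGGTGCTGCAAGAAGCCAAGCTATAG
Flnc, 99 nt, chr6:29452799-29452897, plus strand: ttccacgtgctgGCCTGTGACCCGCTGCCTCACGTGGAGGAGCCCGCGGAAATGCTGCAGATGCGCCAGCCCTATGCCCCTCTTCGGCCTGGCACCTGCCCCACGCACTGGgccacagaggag
Ktn1, 84 nt, chr14:47726471-47726554, plus strand: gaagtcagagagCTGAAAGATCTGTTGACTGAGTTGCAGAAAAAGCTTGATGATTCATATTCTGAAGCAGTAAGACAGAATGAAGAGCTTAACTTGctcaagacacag
Myof, 39 nt, chr19:37969907-37969945, minus strand: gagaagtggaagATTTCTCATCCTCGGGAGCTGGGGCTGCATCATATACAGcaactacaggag
Osbpl9, 39 nt, chr4:109091661-109091699, minus strand: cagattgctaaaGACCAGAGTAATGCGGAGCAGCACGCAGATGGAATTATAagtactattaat
App, 168 nt, chr16:85043576-85043743, minus strand: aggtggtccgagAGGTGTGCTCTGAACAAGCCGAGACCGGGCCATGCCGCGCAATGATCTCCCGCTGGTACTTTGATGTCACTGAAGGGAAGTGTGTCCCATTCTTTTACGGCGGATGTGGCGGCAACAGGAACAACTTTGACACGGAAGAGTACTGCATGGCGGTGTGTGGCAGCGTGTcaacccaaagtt
App, 57 nt, chr16:85040251-85040307, minus strand: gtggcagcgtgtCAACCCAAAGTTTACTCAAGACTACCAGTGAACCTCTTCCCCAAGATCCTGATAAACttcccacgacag
App, 54 nt, chr16:84971408-84971461, minus strand: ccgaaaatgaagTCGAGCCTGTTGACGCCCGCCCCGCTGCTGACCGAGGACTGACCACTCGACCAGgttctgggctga
Ptbp1, 30 nt, chr10:79858952-79858981, plus strand: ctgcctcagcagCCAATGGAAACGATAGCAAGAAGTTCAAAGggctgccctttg

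The first 4 lie within coding sequence: exon 11 of 19 of the annotated Phldb2 transcript, exon 14 of 22 of Palld, exon 7 of 12 of Dpf2 and exon 10 of 15 of Trip10. The exons of Flnc (exon 31 of 48), Ktn1 (exon 39 of 43), Myof (exon 17 of 54) and Osbpl9 (exon 9 of 24) are coding too, as are exons 7, 8 and 15 of the 18 exons of App. The Scarb1 exon is exon 12 of 13 and holds the last coding bases of the transcript that includes it.

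Most frame-keeping cassette exons were constitutive in these cells. Mean Psi over the 6 libraries was above 0.98 for 26962 of the 30050 exons (89.7%) and below 0.02 for 602. Psi was identical in all 6 libraries for 22561 exons and spanned 0.10 or more for 1393. The 2486 exons with a mean Psi of 0.02 to 0.98 (8.27%) entered the tests, and 1042 of them had a mean of 0.10 to 0.90. Of all 30050 exons 92.4% were coding in a protein-coding transcript, against 78.9% of the tested exons. An annotated transcript that skips the exon existed for 14.5% of all and for 69.4% of the tested. The median length was 114 nt over all and 99 nt over the tested exons.

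The first question was which of these exons differed between the libraries named KO and named WT. Counted without any test, 145 of the 30050 exons had Psi higher by 0.10 or more in the library named KO in both the untreated and the TNF pair, and 133 had it lower by as much in both, together 0.925%. The same count gave 2.15% of all 137615 nodes (1.08% higher and 1.08% lower) and 0.346% of the 46017 frame-shifting cassette exons of the same length range and read minimum. In the planned test, limma on the arcsine square root of Psi over 34232 nodes of every type with genotype and TNF as additive terms, no exon was called in this comparison (background 0%), where called means a Benjamini-Hochberg adjusted p under 0.05 and a fitted Psi difference of at least 0.10. Without adjustment, 437 of the 2486 exons had p under 0.05, and the smallest adjusted p among them was 0.0851. With edgeR on reads that include and skip the node, the count was also 0, with 323 exons at an unadjusted p under 0.05.

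Over the 5845 cassette exon nodes alone, 117 frame-keeping exons were called, 74 higher and 43 lower in the libraries named KO. That is 4.71% of the 2486 tested, against a background of 3.17% over all cassette exon nodes (2.09% higher and 1.08% lower) and 42 of 3031 (1.39%) among frame-shifting exons; the difference between these shares was not tested. All exons described below as called passed in this cassette exon fit, whose adjusted p is the one printed, and none passed over all node types. The fit has 2 residual degrees of freedom, which measure how unequal a difference is in the untreated and the TNF pair and not the spread between replicates. Its adjusted p also rests on variance borrowed from the other nodes (moderation), with 5.02 prior degrees of freedom, against 0.953 over all node types. The part of this in the unlike counts of the 2 fits was not tested. Fitted Psi differences and their SE come from the same terms on untransformed Psi, without moderation or weights. Each SE thus belongs to another fit than the adjusted p beside it and takes no account of the number of reads. Grouped by the labels instead of the file names, it called 0. Without the untreated library named KO it called 0 as well, without the TNF library named KO 4, without the untreated library named WT 77 and without the TNF library named WT 66. On the log2 odds scale it called 8, by edgeR 0, and without a trend of the variance on reads 39. In bulk RNA, a change in the share of cells that use an exon and a change within each cell cannot be told apart.

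**Figure D1:**
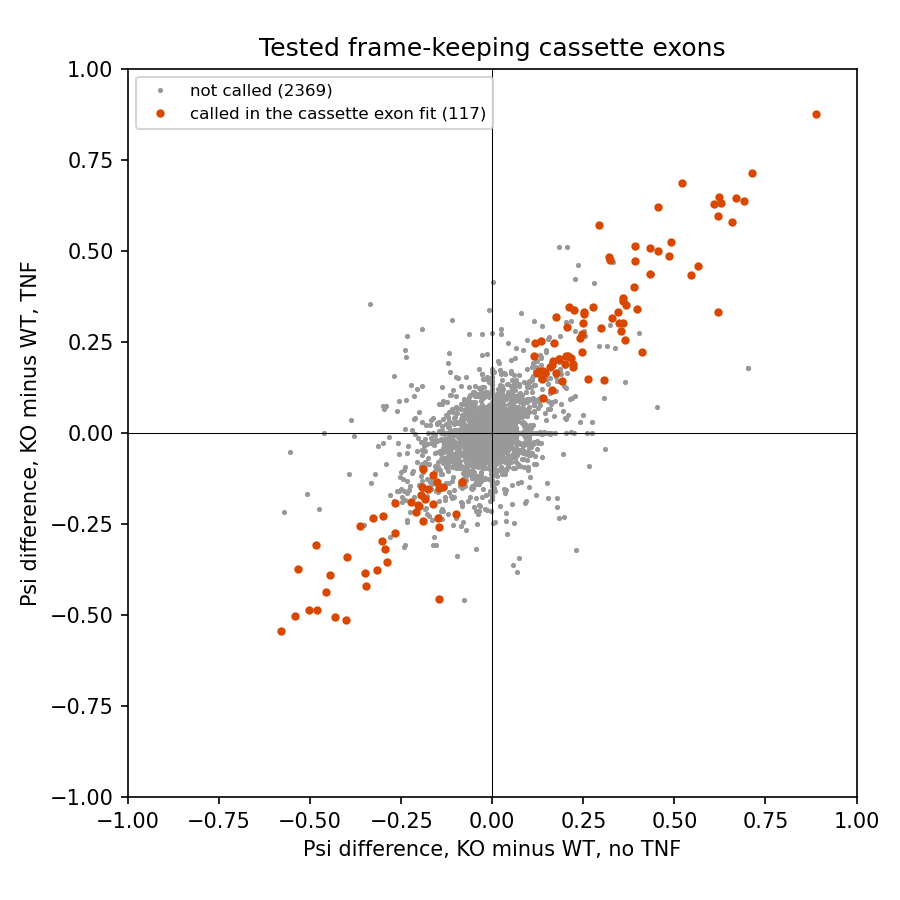
Each of the 2486 tested exons by its Psi difference, KO minus WT as the files are named, in the untreated pair (horizontal axis) and the TNF pair (vertical axis). The 117 called exons, larger points, lie along the diagonal away from 0, and 114 of them differ by 0.10 or more the same way in both pairs. A call requires a fitted difference of at least 0.10 and favours exons whose pairs differ alike. The position of the called exons is therefore shown as a description.

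The called exons were in 97 genes. Median Psi of the 74 called higher was 0.0758 and 0.0671 named WT, 0.436 and 0.51 named KO and 0.154 and 0.146 named Rescue. Psi was below 0.10 for 45 and 44 of these exons in the libraries named WT and for none in those named KO. The 43 called lower had medians of 0.868 and 0.842 named WT, 0.525 and 0.521 named KO and 0.812 and 0.824 named Rescue. Their median difference in size was 0.265, against 0.302 for those called higher. A difference of 0.5 or more was reached by 13 exons called higher and by 2 called lower. Mean reads were under 50 for 9 of the 117.

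**Figure D2:**
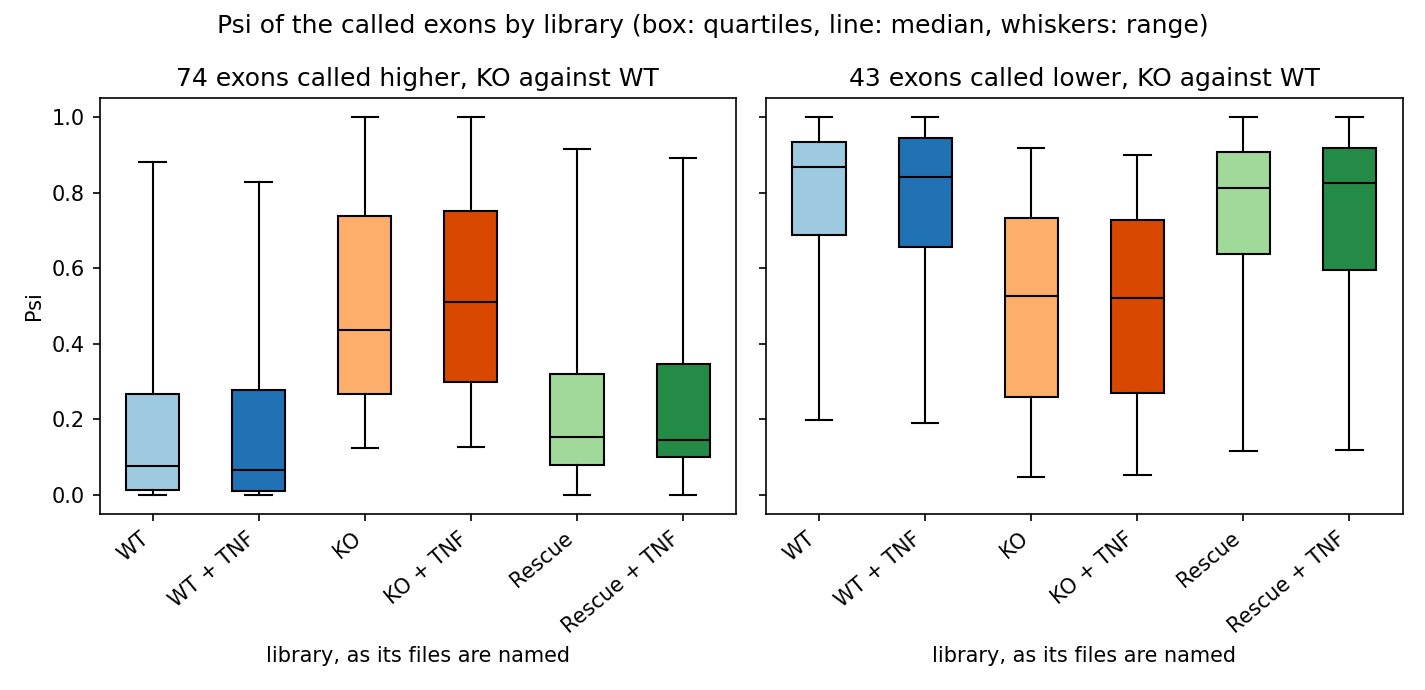
Psi of the 74 exons called higher and the 43 called lower in each of the 6 libraries (horizontal axis, as the files are named), with the median, quartiles and full range. The medians are 0.436 and 0.51 in the libraries named KO against 0.0758 and 0.0671 named WT on the left, and 0.525 and 0.521 against 0.868 and 0.842 on the right. These values chose the exons and are shown as a description.

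The largest difference was in Phldb2, a protein of the cell cortex that anchors microtubules near focal adhesions. Psi of its 183-nt exon was 0.0284 and 0.0207 for WT, 0.917 and 0.895 for KO and 0.266 and 0.337 for Rescue. The exon went from nearly always skipped to nearly always included, with Rescue between and no overlap of the 3 genotypes. The fitted difference, KO minus WT, was 0.881 ± 0.0354 (SE; adjusted p = 0.00024). Junction reads that skip the exon numbered 141 and 193 named WT and 14 and 17 named KO, while reads that join it to a neighbouring exon numbered at most 6 on either side named WT and at least 118 named KO.

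The 51-nt exon of Palld, the gene of the actin-bundling protein palladin, had Psi of 0.0243 and 0.0087 for WT, 0.715 and 0.646 for KO and 0.066 and 0.0554 for Rescue. Both libraries named KO stood far above the other 4, and the Rescue values lay close to WT (0.664 ± 0.0229, adjusted p = 0.00024). Junction reads skipping it numbered 221, 228, 283 and 162 for WT and Rescue and 88 and 87 for KO. In Dpf2, a subunit of the BAF chromatin remodelling complex, the 42-nt exon had Psi of 0.0563 and 0.0356 for WT, 0.666 and 0.665 for KO and 0.122 and 0.103 for Rescue. Again only the libraries named KO included it in most transcripts (0.62 ± 0.00772, adjusted p = 0.000533). For the 168-nt exon of Trip10, which codes for a membrane-bending effector of Cdc42, Psi was 0.087 and 0.0831 for WT, 0.71 and 0.73 for KO and 0.284 and 0.266 for Rescue. Here Rescue lay above WT and well below KO (0.635 ± 0.0136, adjusted p = 0.000533).

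Dennd1a, an exchange factor for Rab35, had a 129-nt exon at 0 and 0.0571 for WT, 0.714 and 0.771 for KO and 0.155 and 0.206 for Rescue. It rested on fewer reads, with 1 to 31 junction reads on its left side. The 108-nt exon of Mical2, an enzyme that oxidises actin, was at 0.0898 and 0.135 for WT, 0.71 and 0.731 for KO and 0.187 and 0.317 for Rescue. In Kansl3, a subunit of a histone acetyltransferase complex, the 78-nt exon was at 0.0706 and 0.0159 for WT, 0.729 and 0.595 for KO and 0.138 and 0.16 for Rescue. For these 3 exons, too, no library named WT or Rescue reached the lower of the values named KO. The fitted differences were 0.714 ± 0.00247, 0.608 ± 0.0405 and 0.619 ± 0.0552 (SE). The small SE for Dennd1a is not the precision of its Psi, whose deposited intervals named KO were 0.619 to 0.792 and 0.625 to 0.867.

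Several exons were included in part already in the libraries named WT. The 78-nt exon of Col4a3bp, the ceramide transfer protein CERT, was at 0.22 and 0.333 for WT, 0.848 and 0.963 for KO and 0.415 and 0.406 for Rescue. A 30-nt exon of Ppp3cb, a catalytic subunit of the phosphatase calcineurin, was at 0.356 and 0.336 for WT, 0.92 and 0.794 for KO and 0.436 and 0.426 for Rescue. Both were near full inclusion in 1 or both libraries named KO. In Iqsec2, an exchange factor for Arf GTPases, the 96-nt exon was at 0.267 and 0.171 for WT, 0.789 and 0.858 for KO and 0.563 and 0.206 for Rescue. Its untreated Rescue value lay between the values named WT and KO, and its TNF Rescue value within the range named WT. The 171-nt exon of Usp54 was at 0.349 and 0.25 for WT, 0.804 and 0.871 for KO and 0.37 and 0.362 for Rescue, with the Rescue pair above the WT pair and far below KO. The 66-nt exon of Akap13, a scaffold that anchors protein kinase A and activates RhoA, was at 0.331 and 0.197 for WT, 1 and 0.842 for KO and 0.272 and 0.17 for Rescue, with only 22 to 52 reads per library.

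Of the exons called lower, the one with the largest difference was the 129-nt exon of Scarb1, the receptor for high-density lipoprotein. It is known that including or skipping this exon gives receptor isoforms with different cytoplasmic tails. Psi was 0.868 and 0.842 for WT, 0.289 and 0.299 for KO and 0.808 and 0.75 for Rescue. Inclusion was the rule in the libraries named WT and Rescue and the exception in those named KO (-0.561 ± 0.0241, adjusted p = 0.000533). Junction reads that skip the exon numbered 37 and 40 named WT, 150 and 148 named KO and 68 and 61 named Rescue.

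The 99-nt exon of Flnc, which codes for the actin crosslinker filamin C, was at 1 and 1 for WT, 0.498 and 0.513 for KO and 0.873 and 0.84 for Rescue. In the libraries named WT it was always included, with 0 and 2 skipping reads, against 154 and 164 in those named KO (-0.494 ± 0.0174, adjusted p = 0.00024). The 84-nt exon of Ktn1, the gene of kinectin, a membrane protein that binds the motor kinesin, was at 0.626 and 0.634 for WT, 0.145 and 0.147 for KO and 0.658 and 0.595 for Rescue. WT and Rescue values overlapped, and both values named KO lay far below (-0.484 ± 0.0278, adjusted p = 0.00141). The 39-nt exon of Myof, the gene of myoferlin, which acts in membrane fusion and repair, was at 0.79 and 0.829 for WT, 0.357 and 0.322 for KO and 0.787 and 0.744 for Rescue. Its Rescue values lay just below the WT values and far above those named KO (-0.47 ± 0.032, adjusted p = 0.00119).

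Osbpl9, an oxysterol-binding protein relative, had a 39-nt exon at 0.755 and 0.559 for WT, 0.221 and 0.184 for KO and 0.652 and 0.59 for Rescue. In its family member Osbpl6 a 93-nt exon was at 0.558 and 0.665 for WT, 0.155 and 0.152 for KO and 0.391 and 0.613 for Rescue. The libraries named KO were the lowest of all 6 for both, and the untreated Rescue value of Osbpl6 fell between KO and WT. For Osbpl9 the junction reads gave a smaller share of skipping than Psi did: 6 and 11 reads skipped the exon named WT, 23 and 22 named KO and 9 and 3 named Rescue, beside 124 and 101, 42 and 30 and 107 and 79 on its left side. For the 30-nt exon of Arhgef11, an activator of RhoA, Psi was 0.624 and 0.579 for WT, 0.168 and 0.142 for KO and 0.601 and 0.497 for Rescue. Nprl3, a subunit of the GATOR1 complex that restrains mTORC1, had a 39-nt exon at 0.672 and 0.509 for WT, 0.188 and 0.202 for KO and 0.581 and 0.334 for Rescue. The Rescue value with TNF lay between KO and WT for Nprl3 and close below WT for Arhgef11.

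Pard3, a polarity protein of cell junctions, had a 42-nt exon at 0.642 and 0.68 for WT, 0.101 and 0.177 for KO and 0.27 and 0.566 for Rescue, and here the untreated Rescue value stayed closer to KO than to WT. A 120-nt exon of Etl4 was at 0.823 and 0.799 for WT, 0.377 and 0.408 for KO and 0.896 and 0.915 for Rescue. In Mycbp2, a ubiquitin ligase, the 108-nt exon was at 1 and 0.867 for WT, 0.6 and 0.526 for KO and 1 and 0.939 for Rescue. Both had Rescue values as high as WT or higher. The 75-nt exon of Kctd17, an adaptor of the CUL3 ubiquitin ligase, was at 0.872 and 0.884 for WT, 0.525 and 0.464 for KO and 0.852 and 0.902 for Rescue. Its junction reads on the left side numbered 5 and 4 named WT, 20 and 21 named KO and 11 and 11 named Rescue. Reads that skip it numbered 31 and 31, 106 and 113, and 34 and 22 in the same order. These reads give less inclusion than its Psi does, and they did not show the lower inclusion named KO. The named exons of Trip10, Usp54, Ppp3cb, Etl4, Pard3 and Kctd17, and those given below of Ccdc88a and Ptk2b, the 93-nt exon of Exoc7 and the Ptbp1 exon among others, have a node that touches another node of the gene, so that the exon can be part of a longer one; this holds for 30 of the 117 called exons and for 25.8% of all 30050. The 87 called exons that touch no other node were 58 higher and 29 lower.

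**Figure D3:**
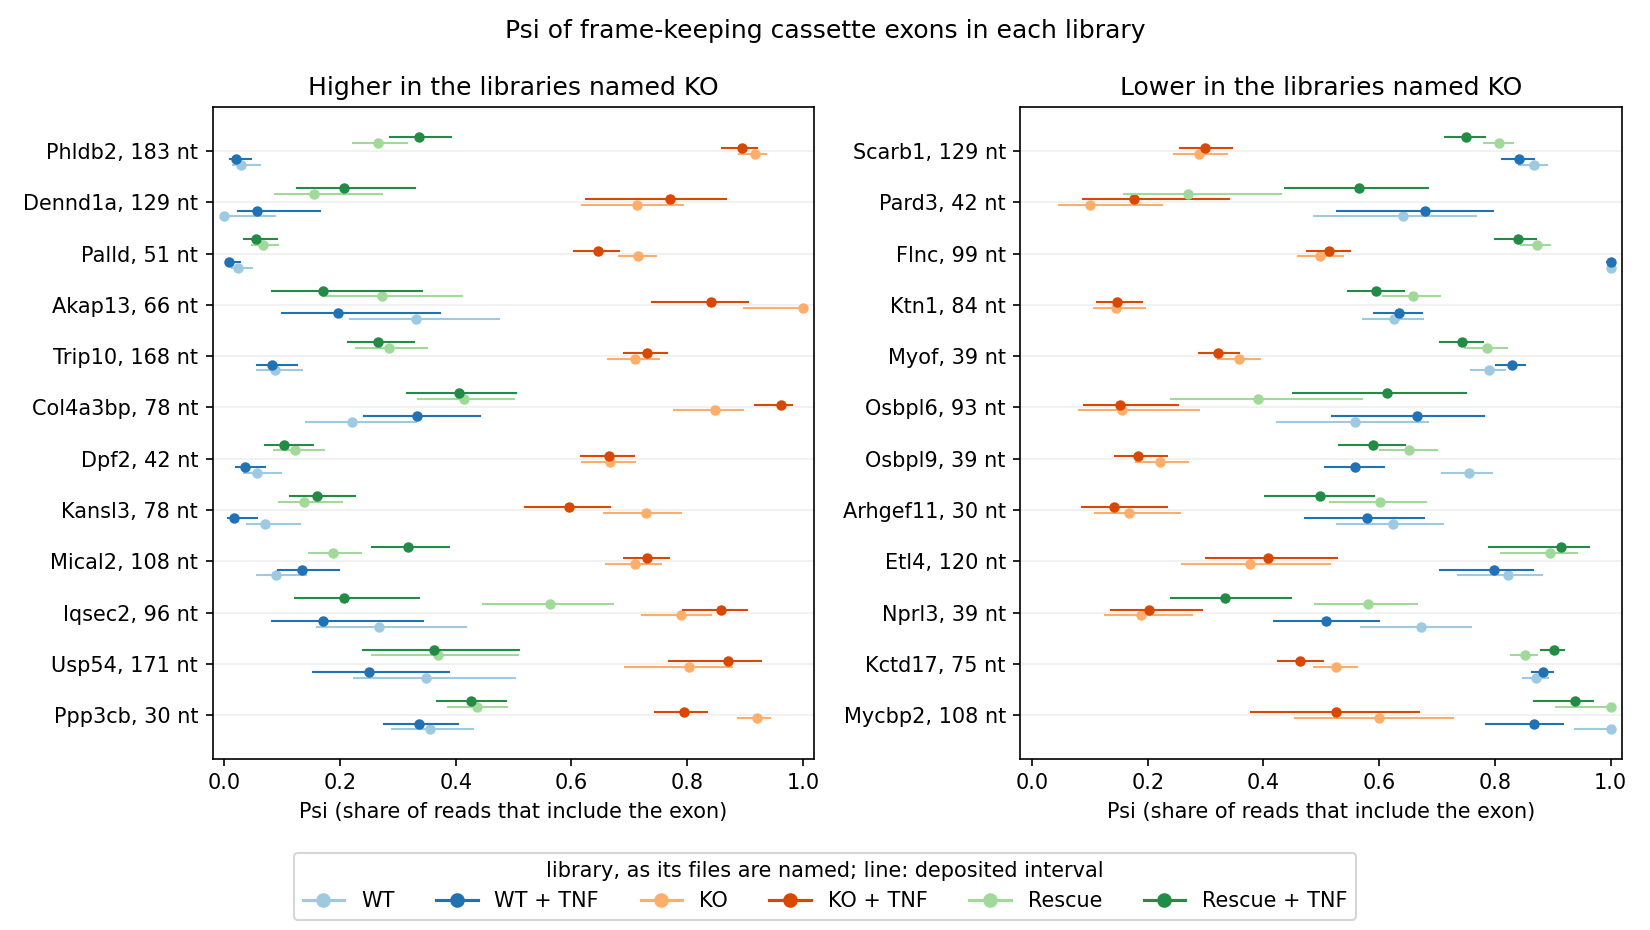
Psi (horizontal axis, 0 to 1) of the 12 exons with the largest difference in each direction, 1 per gene, in each library, with the interval deposited by the authors as a line. On the left the libraries named KO lie at 0.595 or above and on the right at 0.6 or below, apart from the other 4 libraries of the same exon.

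By role, called exons were spread over all but 1 of the 7 gene lists examined, which had been put together with earlier results of these libraries known. Actin cytoskeleton and cell junction genes held 545 frame-keeping exons, of which 60 were tested and 15 called (25%), 9 higher and 6 lower, with a median difference over the tested of 0.0126. Over all 2486 tested exons the median was -0.00595 and the share called 4.71%. Besides Palld and Flnc, the 2 exons of Pdlim5, a LIM protein of actin fibres, were called higher. The 132-nt exon went from 0 and 0 named WT to 0.251 and 0.333 named KO, and its 144-nt neighbour from 0 and 0 to 0.251 and 0.326. In Epb41l3, which links the membrane to the spectrin skeleton, the 123-nt exon was at 0.282 and 0.191 for WT, 0.558 and 0.536 for KO and 0.286 and 0.166 for Rescue. The 66-nt exon of Mprip, which binds myosin phosphatase, was called lower, from 0.911 and 0.939 named WT to 0.721 and 0.696 named KO, as was a 111-nt exon of the actin-branching protein cortactin (Cttn), from 0.89 and 0.883 to 0.728 and 0.766. Cttn holds another 111-nt exon, not called in this comparison. Reads that skip the exon starting at 144452027 numbered 56 and 56 named WT and 140 and 130 named KO. For the exon starting at 144450978 they numbered 66 and 70 named WT and 152 and 143 named KO. A 33-nt exon of Fermt2, the integrin activator kindlin-2, was called higher, from 0.029 and 0 to 0.275 and 0.222. Exons of the tropomyosin genes Tpm1 to Tpm4 were on the list and none was called. Mical2, given above, was not on the list.

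Membrane trafficking genes held 369 exons, 52 tested and 10 called (19.2%), 6 higher and 4 lower, with a median difference of 0.0008. Apart from Dennd1a, Ktn1 and Osbpl9, both called exons of Exoc7, a subunit of the exocyst that tethers secretory vesicles, were higher. Its 93-nt exon was at 0.081 and 0.0303 for WT, 0.402 and 0.513 for KO and 0.184 and 0.178 for Rescue. The 39-nt exon was at 0.0325 and 0.0272 for WT, 0.244 and 0.373 for KO and 0.0546 and 0.0592 for Rescue. Clathrin assembly protein Picalm had 2 exons called higher, of 150 nt (0.494 and 0.67 to 0.802 and 0.816) and of 102 nt (0.042 and 0.0501 to 0.304 and 0.198). A 42-nt exon of Ap2b1, a subunit of the clathrin adaptor AP-2, went from 0.193 and 0.184 to 0.362 and 0.43.

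Kinases and regulators of small GTPases held 283 exons, 40 tested and 10 called (25%), 8 higher and 2 lower, with a median difference of 0.0188. Both called exons of Rapgef1, an activator of Rap1, were at or near 0 in the libraries named WT. The 258-nt exon was at 0 and 0 for WT, 0.391 and 0.473 for KO and 0.116 and 0.101 for Rescue, and the 153-nt exon went from 0.0131 and 0.00909 named WT to 0.337 and 0.483 named KO. Ccdc88a, the actin-binding protein girdin, had an 84-nt exon at 0.268 and 0.324 for WT, 0.814 and 0.757 for KO and 0.435 and 0.407 for Rescue. A 225-nt exon of the kinase Map4k4 went from 0.268 and 0.342 to 0.451 and 0.544, and a 45-nt exon of the kinase Mark3 from 0.772 and 0.604 to 0.948 and 0.923. The 39-nt exon of Spag9, a scaffold for JNK kinases, was called lower, from 0.755 and 0.656 to 0.405 and 0.27.

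Transcription and chromatin genes held 154 exons, 42 tested and 11 called (26.2%), 8 higher and 3 lower, with a median difference of 0.0212. Of the 8 called higher, 7 lay in Lrrfip1 and 1 in its relative Lrrfip2, so this share rests on 1 gene family. The chromatin genes Dpf2 and Kansl3, with exons called higher as given above, were not on this list. Its counts thus do not cover every chromatin gene with a called exon. The 3 called lower were a 138-nt exon of the transcription factor Mef2d (0.879 and 0.906 to 0.682 and 0.736), a 63-nt exon of Gtf2i (0.737 and 0.658 to 0.587 and 0.425) and an 84-nt exon of the chromatin reader Zmynd8 (0.918 and 0.95 to 0.782 and 0.801).

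Extracellular matrix genes and their receptors held 413 exons, 48 tested and 6 called (12.5%), 3 higher and 3 lower, all in App, Hspg2 and Tnc, with a median difference of -0.0023. Of the 6, 3 were in App, the amyloid precursor protein, and 2 in Hspg2, so this share rests on few genes. The 273-nt exon of Tnc, the matrix protein tenascin C, was at 0.919 and 1 for WT, 0.729 and 0.9 for KO and 0.737 and 0.868 for Rescue, and the Rescue values lay close to those named KO. It was only just called (adjusted p = 0.0499), with 36 reads in the untreated library named KO. Fibronectin (Fn1), whose alternative extra domains mark embryonic and wound matrix, had 13 frame-keeping exons in the tests and none called. Its extra domain A, the 270-nt exon, was at 0.138 and 0.187 for WT, 0.188 and 0.245 for KO and 0.1 and 0.162 for Rescue. Extra domain B, the 273-nt exon 25, was at 0.22 and 0.283 for WT, 0.183 and 0.202 for KO and 0.118 and 0.162 for Rescue. In both exons the Psi with TNF was above the untreated value in each line. Neither exon was called for TNF. The label of the line, Fn AB+/-, can be read as naming these same extra domains. Whether an altered Fn1 allele limits their Psi in all 6 libraries was not tested. The values are thus not given as those of an unaltered gene.

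RNA-binding and splicing factor genes held 142 exons, 28 tested and 1 called (3.57%), with a median difference of -0.0111. That exon was the 30-nt node of Ptbp1 itself, coding in the annotated transcript, at 1 and 1 for WT, 0.854 and 0.849 for KO and 1 and 1 for Rescue. Junction reads that skip it numbered 0 and 2 named WT, 37 and 45 named KO and 1 and 0 named Rescue. The junction reads on its included side, 192, 291, 204, 248, 55 and 77 in the same order, came from its left edge alone, since the node touches another on its right. At the right edge there were 0 in every library. The reads thus did not show a separate 30-nt exon joined to the next exon as annotated, and the node can be part of a longer exon. TNF and NF-kB signalling genes held 103 exons, of which 7 were tested and 0 called, with a median difference of 0.013.

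**Figure D4:**
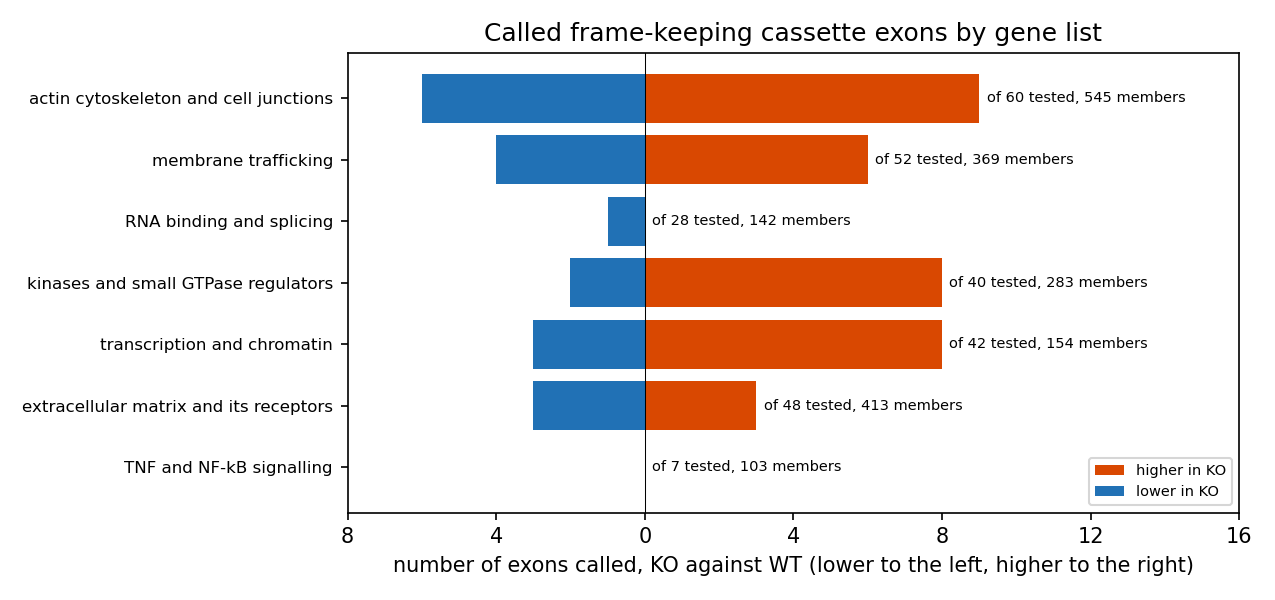
Number of frame-keeping cassette exons called in the comparison of libraries named KO and named WT for each gene list, lower to the left and higher to the right, with the number tested and the number of exons in the list. Actin and junction genes had 9 higher and 6 lower of 60 tested, and the TNF and NF-kB list had 0 of 7.

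In 12 genes more than 1 exon was called, 32 exons in all. Lrrfip1, a gene of proteins that bind nucleic acid and the actin regulator flightless, held 7, all higher. From 5′ to 3′ the exons of 48, 45, 51, 39, 60, 78 and 93 nt had Psi of 0.369 and 0.373, 0.347 and 0.327, 0.358 and 0.38, 0.163 and 0.127, 0.525 and 0.49, 0.611 and 0.592 and 0.124 and 0.218 in the libraries named KO. The same exons were at 0.0104 and 0.012, 0 and 0.025, 0.0134 and 0.0475, 0 and 0.0103, 0.161 and 0.234, 0.179 and 0.157 and 0.00948 and 0.00729 in those named WT. The groups did not overlap for any of the 7, which the choice of called exons favours. Within each treatment the Rescue values lay between, for example 0.123 and 0.107 for the 48-nt and 0.214 and 0.239 for the 78-nt exon. For the 60-nt exon they were 0.23 and 0.258, so that its Rescue values overlapped those named WT.

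App, the amyloid precursor protein, had 3 called exons that went different ways. Exon 7 (168 nt), which codes for the Kunitz protease inhibitor domain, was at 0.843 and 0.825 for WT, 0.541 and 0.528 for KO and 0.819 and 0.824 for Rescue. Exon 8 (57 nt) was at 0.454 and 0.439 for WT, 0.23 and 0.248 for KO and 0.449 and 0.449 for Rescue. Both were lower in the libraries named KO, by -0.299 ± 0.00855 and -0.207 ± 0.0117 (SE; adjusted p = 0.000781 and 0.0043), with Rescue close to WT. Exon 15 (54 nt), which is known to be left out in leukocytes and included in neurons, was at 0.404 and 0.533 for WT, 0.757 and 0.813 for KO and 0.417 and 0.528 for Rescue. It was higher in the libraries named KO, by 0.317 ± 0.0269 (adjusted p = 0.00144). Skipping reads over exon 7 numbered 246 and 459 named WT, 879 and 720 named KO and 292 and 281 named Rescue.

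Arhgef11 also had exons called in both directions: the 30-nt exon lower, as given above, and a 129-nt exon higher, from 0.734 and 0.671 named WT to 0.974 and 0.931 named KO. In Mical2 the exons of 126, 219 and 102 nt, which follow one another, were called higher, from at most 0.015 named WT to 0.182 and 0.218, 0.127 and 0.17 and 0.123 and 0.164, together with the 108-nt exon further on. In Smtn, the gene of smoothelin, exons of 165 and 63 nt were called lower and had the same Psi as each other in every library: 1 and 1 for WT, 0.918 and 0.866 for KO and 1 and 1 for Rescue. Hspg2, the gene of the basement membrane proteoglycan perlecan, had a 207-nt node called higher that matches no annotated exon on both edges, at 0 and 0 for WT, 0.203 and 0.212 for KO and 0 and 0 for Rescue. Junction reads joined to its left side numbered 5 and 0 named WT, 192 and 194 named KO and 29 and 41 named Rescue, so that in Rescue the Psi of 0 is lower than these reads give.

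**Figure D5:**
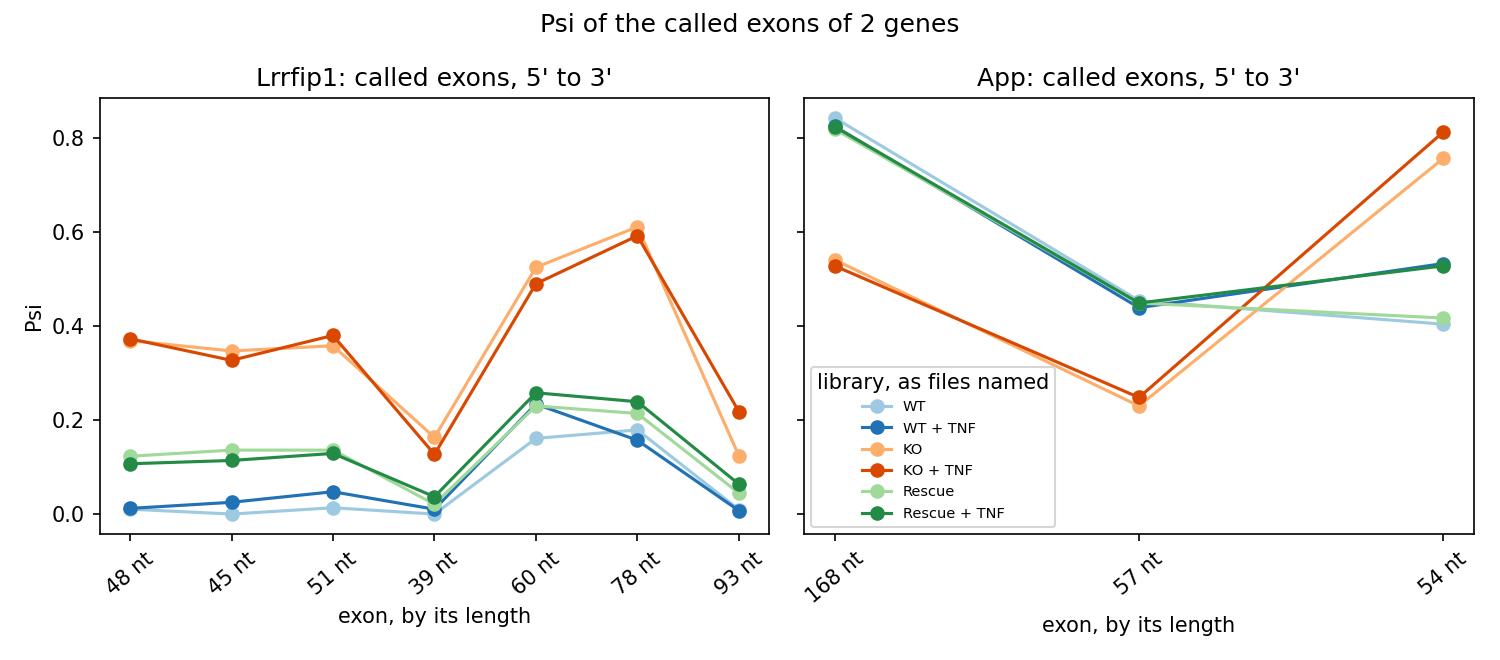
Psi (vertical axis) of the called exons of Lrrfip1 and App in 5′ to 3′ order, labelled by length, with 1 line per library as the files are named. All 7 Lrrfip1 exons are highest in the libraries named KO, whereas in App the 168-nt and 57-nt exons are lowest and the 54-nt exon is highest there.

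The second question was how the same exons stood in the libraries named Rescue against those named KO. Both comparisons use the libraries named KO, so a call in one is not independent of a call in the other. Over all node types 0 exons were called (background 0%; 379 at an unadjusted p under 0.05, 244 by edgeR, which also called 0). Over cassette exon nodes 96 were called, 38 higher and 58 lower in Rescue, 3.86% of those tested against 2.48% over all cassette exon nodes (0.958% higher and 1.52% lower) and 29 frame-shifting exons (0.957%). With the labels' groups, without the untreated and without the TNF library named KO, it called 0 each time, and 26 and 33 without the untreated and the TNF library named Rescue. Without any test, 114 exons were higher and 134 lower by 0.10 in both pairs (0.825%, against 2.19% of all nodes, 1.11% higher and 1.08% lower).

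Of the 8 named exons called lower in Rescue, 7 have their values above: Akap13 (-0.7 ± 0.0199), Palld (-0.62 ± 0.0229), Phldb2 (-0.605 ± 0.0354), Dennd1a (-0.562 ± 0.00247), Dpf2 (-0.553 ± 0.00772), Kansl3 (-0.513 ± 0.0552) and Col4a3bp (-0.495 ± 0.0502), each as the fitted Psi difference, Rescue minus KO, with its SE. The other, a 45-nt exon of Phldb1, a relative of Phldb2, was at 0.344 and 0.389 for WT, 0.74 and 0.728 for KO and 0.228 and 0.28 for Rescue. Its Rescue values were the lowest of all 6 libraries. The 8 called higher in Rescue were in Etl4 (0.513 ± 0.0204), Scarb1 (0.485 ± 0.0241), Ktn1 (0.48 ± 0.0278), Ptk2b (0.459 ± 0.0304), Myof (0.426 ± 0.032), Osbpl9 (0.418 ± 0.0605), Mycbp2 (0.406 ± 0.0271) and Arhgef11 (0.394 ± 0.0288). The 126-nt exon of Ptk2b, the kinase Pyk2, was at 0.729 and 0.841 for WT, 0.435 and 0.521 for KO and 0.923 and 0.951 for Rescue, so that Rescue was the highest group. Ptk2b RNA was also at its lowest there, at 10.8 and 12.3 TPM against 40.7 and 42.2 in the libraries named WT; the part of that level in the exon's Psi was not tested.

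Between the libraries named Rescue and named WT, the fit over cassette exons called 1 exon, lower in Rescue (0.0402% of those tested, background 0.0171%; 4 without the untreated and 14 without the TNF library named WT, 0 without any 1 of the other 4), and the fit over all node types called 0 (background 0%; 233 at an unadjusted p under 0.05, 160 by edgeR with 0 called). It was the 141-nt exon of Fbln2, the matrix protein fibulin-2, at 0.752 and 0.646 for WT, 0.749 and 0.678 for KO and 0.378 and 0.287 for Rescue. The 4 libraries named WT and KO lay together and both Rescue values lay far below them, with a fitted difference of -0.366 ± 0.0124 (SE; adjusted p = 0.00701). Skipping reads numbered 682 and 639 named WT, 177 and 142 named KO and 1352 and 1056 named Rescue. Its gene's level was 280.4 and 180.6 TPM in the libraries named KO against 525.6 to 960.1 TPM in the other 4. Without any test, 48 exons were higher and 52 lower by 0.10 in both pairs (0.333%, against 1.9% of all nodes, 0.953% higher and 0.95% lower).

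TNF treatment gave no called exon in either fit (background 0% in both), with 140 exons at an unadjusted p under 0.05 over all node types, 164 over cassette exon nodes and 57 by edgeR, which called 0. The smallest adjusted p was 0.776 over all node types and 0.587 over cassette exons. Without any test, 5 exons had Psi higher and 13 lower by 0.10 or more with TNF in all 3 lines, 0.0599% of the 30050, against 0.494% of all nodes (0.233% higher and 0.262% lower) and 0.0348% of frame-shifting exons. A few of these are given as values and were chosen after they were seen. The 144-nt exon of the cell cycle kinase Cdk2 was at 0.6, 0.725 and 0.593 without and 0.458, 0.526 and 0.477 with TNF in the libraries named WT, KO and Rescue. The 147-nt exon of Adgre5, the adhesion receptor CD97, was at 0.449, 0.37 and 0.521 without and 0.686, 0.559 and 0.631 with TNF. For neither exon did the untreated and the treated values overlap.

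Of the exons that differed with TNF in all 3 lines, 2 were also called between KO and WT. One is the 66-nt exon of Akap13, given above, whose Psi was lower with TNF in each line. The other, the 132-nt exon of the kinase Wnk1, was at 0.088, 0.578 and 0.152 without TNF and 0.2, 0.723 and 0.342 with TNF in the libraries named WT, KO and Rescue. Psi was higher with TNF in each line, and in both treatments higher in KO than in WT, by 0.506 ± 0.0277 (adjusted p = 0.000781). The TNF difference was 0.149 ± 0.0226 (SE; adjusted p = 0.587). Over the 117 exons called between KO and WT, the fitted TNF difference was at most 0.149 in size among those called higher and 0.148 among those called lower.

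Features that the choice of exons did not use directly were compared as descriptions. A call needs a Psi difference of at least 0.10, whereas only 1042 of the 2486 tested exons had a mean Psi of 0.10 to 0.90. Features tied to the level of Psi, such as an annotated skip, can therefore follow from the choice, which was not tested. Exons called lower had a median length of 72 nt and those called higher 84 nt, against 99 nt for the tested, and 67.4% and 56.8% were shorter than 100 nt, against 51.5%. An annotated transcript without the exon existed for 98.6% of those called higher and 95.3% of those called lower, against 69.4% of the tested. Coding position in a protein-coding transcript was held by 86.5% and 86%, against 78.9%. Another 5.41% of those called higher and 11.6% of those called lower were coding in part, against 4.47% of the tested. None of the 117 was classed as lying wholly in an untranslated region, where 5.83% of the tested did. Reading frame phase 2 (as the annotation numbers the bases before the first whole codon) was found in 54.1% of the coding exons called lower, 29.7% of those called higher and 32.3% of those tested. Among the 117, 4 occurred only in transcripts marked for nonsense-mediated decay. Psi compares forms within a gene, so that a change in how fast 1 form is degraded and a change in splicing cannot be told apart.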

How the data were processed

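RNA was sequenced from 6 libraries, 1 per group. Per the deposited file headers, the splicing tables give Psi as a fraction per node, an interval and an estimated count of reads. Junction tables give whole read counts. The gene tables, as deposited by the authors, give TPM and estimated counts. The tool and build behind them are not given in the sources used here. RSEM, the tool in the submitters' processing notes, made files not used here. Node coordinates were matched to GENCODE vM21 exons (GRCm38).

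The fit used limma 3.58.1 in R 4.3.3 on the arcsine square root of Psi (0.375 added to included and 0.75 to total reads), with genotype and TNF as additive terms, a trend on mean log2 reads and Benjamini-Hochberg adjustment over all nodes tested. Nodes needed 20 reads in all 6 libraries and a mean Psi of 0.02 to 0.98. EdgeR 4.0.16 ran on rounded included and skipped reads. Both were tested on simulated data. Intervals and counts of reads cover counting error only.

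The exons, gene lists and tests were chosen with earlier results of these data known. Named exons are called exons with both pairs differing by 0.10 or more, ordered by size, 1 per gene (12 per direction for KO against WT, 8 for Rescue against KO, 5 for the others), the 5 largest called per gene list, and Fn1 exons. As the fit over all node types called none, this rule was applied, after values were seen, to the fit over cassette exon nodes. Other exons named in the text were chosen after their values were seen. The values of 1 exon are not reported here.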

Additional observations from a re-analysis of the deposited data

How the results depend on the processing

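Over all node types, the counts of called exons stayed at 0 in every comparison under most settings. With Psi untransformed they were 3 for KO against WT and 1 for Rescue against KO. Without the TNF term they were 26 for KO against WT, 24 for Rescue against KO and 2 between Rescue and WT. Over cassette exon nodes only they were 117, 96 and 1. Leaving out any 1 library gave 0 each time.

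The alternatives for the cassette exon counts were added after the data were seen. Given first for KO with WT, then for Rescue with KO and last for Rescue with WT, the counts were 0, 0 and 0 with the labels' groups, 8, 4 and 0 on the log2 odds scale, and 0, 0 and 0 by edgeR. A mean Psi of 0.10 to 0.90 gave 177, 152 and 11, and no filter on mean Psi gave 250, 217 and 41, with 19 for TNF. Without a trend on reads they were 39, 6 and 0. Weights by reads gave 2 and no TNF term 0 for Rescue against WT. Leaving out each library in turn gave 0 to 107 for KO against WT, 0 to 110 for Rescue with KO and 0 to 14 for Rescue with WT. The cause of these differences was not tested. The count with an unadjusted p under 0.05 by edgeR was 323, 244 and 160 over all node types.

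Of 58 named exons, 44 changed direction with the labels' groups in place of the file names. KO minus WT was then below 0 for exons called or measured higher above: Phldb2 183 nt -0.318, Dennd1a 129 nt -0.279, Palld 51 nt -0.298, Akap13 66 nt -0.352, Trip10 168 nt -0.225, Col4a3bp 78 nt -0.217, Dpf2 42 nt -0.282, Kansl3 78 nt -0.256, Mical2 108 nt -0.249, Iqsec2 96 nt -0.196, Usp54 171 nt -0.3, Ppp3cb 30 nt -0.189, Epb41l3 123 nt -0.171, Pdlim5 132 nt -0.167, Pdlim5 144 nt -0.163, Exoc7 93 nt -0.19, Exoc7 39 nt -0.162, Ccdc88a 84 nt -0.133, Rapgef1 258 nt -0.178, Lrrfip1 78 nt -0.2, Lrrfip1 48 nt -0.124, Lrrfip1 51 nt -0.105, Lrrfip1 45 nt -0.083, Lrrfip1 60 nt -0.0935, App 54 nt -0.134, Hspg2 207 nt -0.106 and Fn1 270 nt -0.048. It was above 0 for exons lower above: Scarb1 129 nt 0.241, Pard3 42 nt 0.0655, Flnc 99 nt 0.18, Ktn1 84 nt 0.26, Myof 39 nt 0.252, Osbpl6 93 nt 0.173, Osbpl9 39 nt 0.136, Arhgef11 30 nt 0.207, Etl4 120 nt 0.232, Nprl3 39 nt 0.108, Kctd17 75 nt 0.2, Mycbp2 108 nt 0.171, Ptbp1 30 nt 0.0755, App 168 nt 0.137 and App 57 nt 0.093. Rescue minus KO became Ptk2b 126 nt -0.189 and Phldb1 45 nt 0.202. Settings that change only the scale, weights, filter or threshold leave the fitted Psi difference of an exon as it is. With 1 library left out, 337 of 337 values kept their direction, which the choice of most exons by non-overlapping pairs favours. The 11 Fn1 exons with a Psi of 0.87 in the untreated library named WT gave no value without that library, as their mean Psi then passed 0.98.

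No paired analysis was possible because each group has 1 library, so that replicate numbers form no block. Within a treatment, the TNF term of the fit already pairs the genotypes. The comparison of pyrimidine motifs upstream of the exons, in 2 window sizes, was not run, since no genome sequence was used here. Depth limits single values: for the 66-nt exon of Akap13, with 22 reads in the library named WT with TNF, the deposited interval of its Psi of 0.197 was 0.1 to 0.372. With a read minimum of 50, 0 exons were called between KO and WT over all node types and 108 over cassette exon nodes.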

Other observations

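Outside the comparisons above, 11 exons of Fn1 shared 1 Psi value. Each, from the 192-nt exon 7 to the 267-nt exon 20, had Psi 0.87 in the untreated library named WT and close to 1 in the other 5. Junction reads that skip them numbered 0 to 5 in every library, beside 1520 to 9573 on an included side for the exons with both sides measured, other than the side of the 75-nt exon, which touches another node. The junction reads thus did not show skipping of the size that Psi gives, and no value of these 11 exons is described above. They do enter the counts of tested and named exons and the median of the matrix gene list.

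The called exons held several others outside the lists, chosen here after their values were seen. A 57-nt exon of Rtn4, the gene of the endoplasmic reticulum protein Nogo, was at 0.0811 and 0.0755 in the libraries named WT, 0.44 and 0.445 in those named KO and 0.0811 and 0.11 in those named Rescue. The 132-nt exon of Vegfa, the endothelial growth factor, was at 0.396 and 0.447 named WT, 0.596 and 0.636 named KO and 0.443 and 0.539 named Rescue. For Ganab, the glucosidase that trims glycans in the endoplasmic reticulum, a 66-nt exon was at 0.181 and 0.176 named WT, 0.636 and 0.675 named KO and 0.325 and 0.307 named Rescue. The 66-nt exon of Anxa7, a calcium-dependent membrane-binding annexin, was at 0.0161 and 0.0165 named WT, 0.409 and 0.53 named KO and 0.0932 and 0.111 named Rescue. The libraries named KO were the highest pair for all 4. In Cast, the gene of the calpain inhibitor calpastatin, a 57-nt exon was called lower, at 0.354 and 0.284 named WT, 0.0857 and 0.0913 named KO and 0.484 and 0.335 named Rescue.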
